A study of Drosophila melanogaster with 3 samples.

Results

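The genes described here encode the enzymes of glycolysis in Drosophila melanogaster: Gapdh1, Gapdh2, Pgk, Pgi, Pfk, Ald1, Tpi, PyK, Eno and Pglym78. They were taken by name from the dm6 annotation, and all 10 were found among its 13945 protein-coding genes on the main chromosome arms. A peak call was assigned to a gene when its summit lay in the gene body or within 2 kb to either side, a region called the window below. Binding was measured by chromatin immunoprecipitation and sequencing in whole embryos of mixed sex, 2 to 4 h old, from a transgenic line that stably expresses the zinc-finger protein Neu2 with GFP at its C-terminus, precipitated with an anti-GFP antibody. The 3 libraries were biological replicates of this single group, so no other genotype, stage or treatment could be compared, and whether untagged Neu2 was also present was not stated in the labels. The control library was not analysed here.

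Glycolysis splits glucose into pyruvate and yields ATP and NADH without oxygen. Glucose-6-phosphate is isomerised (Pgi), phosphorylated (Pfk) and cleaved into triose phosphates (Ald1, Tpi), which are oxidised by the glyceraldehyde-3-phosphate dehydrogenases (Gapdh1, Gapdh2) and carried through Pgk, Pglym78 and Eno to the pyruvate kinase PyK. In the fly, many of these genes are known to be induced together in later embryogenesis by the nuclear receptor ERR, ahead of larval growth.

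Binding past the authors' reproducibility threshold was found at Gapdh2 and Pgk. Gapdh2 carried 1 strong promoter call that all 3 replicates shared, whereas Pgk carried 3 weaker calls spread over its alternative promoters and the neighbouring gene Bacc. Eno fell just short of the optimal list with a call at an internal start site. The other 7 genes had weak calls, and Tpi had none in the pooled list. The pooled and replicate lists hold background as well as peaks, so such calls need not be binding. The deposited −log10 q-values of their strongest pooled calls ran from 0.153 at PyK to 1.26 at Pgi. At the optimal calls of Gapdh2 and Pgk these values were 2.77 to 3.39. The 2 members with an optimal call made up 20% of the 10, against 14.8% of all protein-coding genes by the same window. Within 1 kb of a transcription start site (TSS) of the gene itself, it was again these 2 of 10, against 8.73% of all genes. A stricter filter left out 1 replicate and kept the optimal peaks that were top calls in both others. The optimal list itself, made from all 3 replicates, was not made anew. Whichever replicate was left out, this filter left Gapdh2 alone near a TSS, 1 of 10, against 4.72% to 5.26% of all genes. By the window, the filter dropped Pgk without replicate 1 or replicate 3 and kept it without replicate 2. With 10 genes, 1 gene more or fewer moves the members' share by 10 percentage points, so neither count sets the glycolytic genes apart from the genome.

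The stretches of 101 bases centred on the summits of the 4 optimal calls, and on the call at Eno just below the threshold, are shown because these calls carry the result. They were read from the RefSeq dm6 genome and run 5′ to 3′ on the strand of the glycolytic gene. Capitals mark TATAAA or its reverse complement TTTATA, and in the second Pgk stretch ATCGAT, the centre of the DNA replication-related element, a word chosen after the sequences had been seen.
Gapdh2, chrX:15867904-15868004, plus strand: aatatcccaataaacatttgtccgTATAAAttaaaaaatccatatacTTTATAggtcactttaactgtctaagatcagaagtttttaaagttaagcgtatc
Pgk, internal promoter, chr2L:2748567-2748667, minus strand: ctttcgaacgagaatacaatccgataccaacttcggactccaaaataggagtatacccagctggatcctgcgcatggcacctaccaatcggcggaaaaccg
Pgk, intron, chr2L:2750434-2750534, minus strand: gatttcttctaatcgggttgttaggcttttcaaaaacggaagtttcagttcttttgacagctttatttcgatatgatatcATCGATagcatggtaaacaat
Pgk, upstream in Bacc, chr2L:2754840-2754940, minus strand: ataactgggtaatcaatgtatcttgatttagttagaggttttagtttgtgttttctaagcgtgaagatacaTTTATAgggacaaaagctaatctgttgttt
Eno, internal promoter, chr2L:1727779-1727879, minus strand: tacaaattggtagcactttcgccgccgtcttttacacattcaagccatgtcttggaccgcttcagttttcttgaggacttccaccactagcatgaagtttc

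Signal below is the authors' own value for each call, on a scale of its own in each list, and rank 1 is the strongest call of a list. The optimal list held 1471 peaks with signals from 88.6 to 998, the pooled list and each replicate list 30000 calls. A replicate's 1471 strongest calls, called its top calls here, began at signals of 34.2 in replicate 1, 38.1 in replicate 2 and 26.8 in replicate 3. To compare replicates, signal was divided by that replicate's median at the optimal peaks (47.0, 47.8 and 33.1 in replicates 1 to 3), and is given as relative signal. The depth of the libraries could not be read from the lists.

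Gapdh2 (FBgn0001092, X from 15868145 to 15869661, plus strand) had the strongest binding of the 10 genes. Its optimal call ran from 15867734 to 15868173 with the summit at 15867954, 191 bp upstream of the first TSS, outside the transcript. The pooled signal was 174 (rank 281). Within 200 bp of this summit, signal was 53.2 in replicate 1 (rank 551), 77.2 in replicate 2 (rank 198) and 44.0 in replicate 3 (rank 332). All 3 were top calls of their replicates, and their summits lay from 118 to 191 bp upstream of the first TSS. Relative signal was 1.36 ± 0.242 (SD, n = 3), and 304 optimal peaks with a call in every replicate had a higher mean. No other optimal call lay in the window, and the nearest one outside was 71941 bp away.

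The rest of the Gapdh2 window held weaker calls downstream of the gene. The pooled call centred on 15870002 reached a signal of 77.6 (rank 2003) and lay 181 bp from the TSS of the next gene, CG16952. In replicates 1 to 3 its signal was 23.8, 23.8 and 30.2. It was a top call in replicate 3, and not in the others. Another, centred on 15870975 inside CG16952, reached 68.1 and was also a top call in replicate 3 but in neither of the others.

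Gapdh1 (FBgn0001091, 2R from 7791901 to 7793380, minus strand) encodes the other glyceraldehyde-3-phosphate dehydrogenase, and no optimal call lay in its window. The 2 proteins shared 323 of 332 residues (97.3%) and the coding sequences 88.8% of bases. The strongest pooled call at Gapdh1 had a signal of 36.5 (rank 14051), with its summit in the coding exon 147 bp downstream of a TSS. In the windows, the strongest call of Gapdh2 had signals of 53.2, 77.2 and 44.0 in replicates 1 to 3, against 16.1, 21.98 and 15.04 at Gapdh1. Gapdh2 was higher in 3 of 3 replicates and the values did not overlap. The log2 ratio of Gapdh2 to Gapdh1 was 1.69 ± 0.134 (SD, n = 3). The exact paired permutation test gave a two-sided p = 0.25. This is the smallest that 3 libraries allow, so the test could not decide. The ratio compares the strongest calls of 2 windows, and at Gapdh1 the summits of these calls spanned 364 bp between replicates. The Gapdh1 calls ranked 10309, 7471 and 10366 in replicates 1 to 3, with −log10 q-values of 0.355, 0.857 and 0.385. Whether they are binding or background was not tested, so the ratio need not measure binding at Gapdh1. Reads from similar copies can be lost or misplaced, and how such reads were handled is not given in the sources used here. Of all stretches of 36 bases in the gene bodies, 99.8% at Gapdh2 and 99.8% at Gapdh1 occurred once in the genome, and 3 of 5482 stretches in the Gapdh2 window also occurred in that of Gapdh1. In the optimal call at Gapdh2, which lies outside the gene body, 100% of these stretches occurred once. The promoters, from 250 bp before to 50 bp after the first TSS, shared 48.6% of aligned bases. Whether read mapping affected the calls at these genes was not tested.

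**Figure D1:**
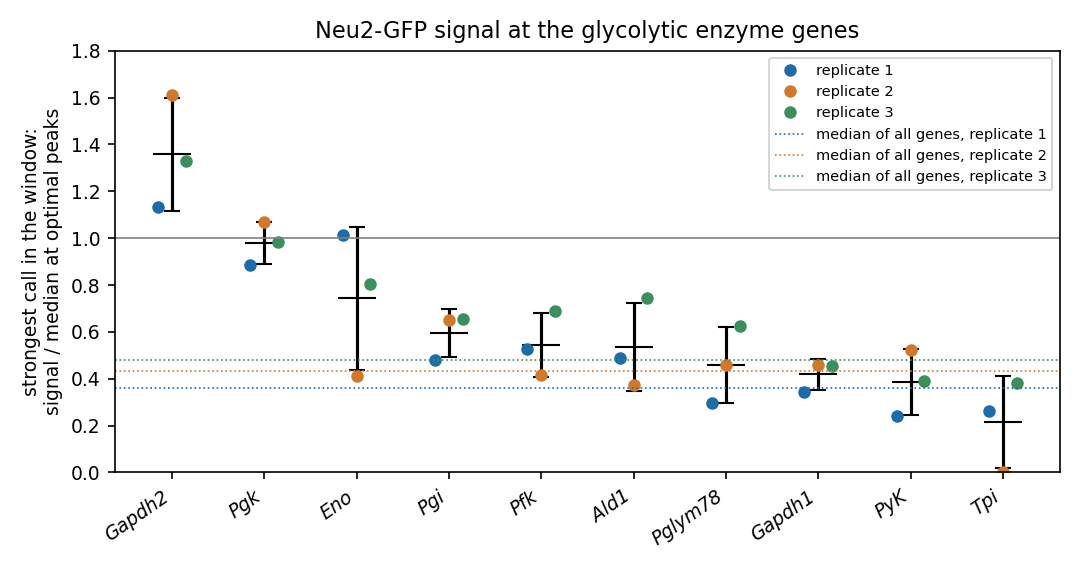
Relative signal (signal divided by the replicate's median at the optimal peaks, y axis) of the strongest call in the window of each glycolytic gene (x axis), with 1 point per replicate, the mean as a horizontal bar and the SD over 3 replicates. The strongest call can lie at a different site in each replicate. Dotted lines give the median of all protein-coding genes per replicate, a point at 0 means no call, and Gapdh2 lies above the median of the optimal peaks (1, grey line) in all 3 replicates.

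Pgk (FBgn0250906, 2L from 2746880 to 2753068, minus strand) encodes phosphoglycerate kinase, the first ATP-yielding step of the pathway. The annotation gives it 5 TSSs, the last of them 4581 bp downstream of the first. With 3 optimal calls and 10 pooled calls it had the most calls of the 10 genes, at 9.81 pooled calls per 10 kb of window, against a median of 2.84 over all genes. For 6 of the 10 pooled calls the nearest protein-coding TSS was that of Pgk, and for the others that of Bacc.

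The strongest Pgk call ran from 2748397 to 2748836 with its summit at 2748617, 130 bp upstream of the most downstream TSS (that of Pgk-RA) and in the 5′ UTR of a longer transcript. Its pooled signal was 109 (rank 892). Signal was 31.7, 50.3 and 25.3 in replicates 1 to 3, with ranks of 1748, 663 and 1777, so that it was a top call in replicate 2 and lay outside the top calls in replicates 1 and 3. Relative signal was 0.831 ± 0.197 (SD, n = 3).

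The call farthest upstream had its summit at 2754890, 1822 bp before the first Pgk TSS. It lay inside Bacc, a gene on the opposite strand that overlaps the 5′ end of Pgk, and 1657 bp from the nearest Bacc TSS. Its pooled signal was 102 (rank 1062). Signal was 41.7, 28.5 and 27.0 in replicates 1 to 3, and it was a top call in replicates 1 and 3. Relative signal was 0.767 ± 0.152 (SD, n = 3).

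The weakest of the Pgk calls had its summit at 2750484, in an intron 337 bp upstream of the TSS of Pgk-RB. At a pooled signal of 88.7 it ranked 1469, 2 places above the end of the optimal list. Signal was 39.9 in replicate 1 and 33.5 in replicate 2, and replicate 3 had no call within 200 bp. The nearest call of that replicate had its summit at 2750707 with a signal of 26.9.

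Taking the whole Pgk window, each replicate had a top call, but the strongest lay at a different place in each. In replicate 1 it had its summit at 2754866 (signal 41.7), in replicate 2 at 2753322 (51.04) and in replicate 3 at 2752889 (32.5), a span of 1977 bp. For each of them the nearest protein-coding TSS was that of Bacc and not of Pgk, at 1633, 89 and 89 bp in replicates 1 to 3. At Gapdh2 the same 3 summits spanned 73 bp. The members with a top call of every replicate in the window were therefore Gapdh2 and Pgk, 2 of 10, against 7.92% of all genes, but at Pgk no single pooled call was a top call in more than 2 replicates. Members whose strongest replicate summits lay within 200 bp of each other were Gapdh2 and Eno, 2 of 10, against 15.8% of all genes.

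Eno (FBgn0000579, 2L from 1724768 to 1729636, minus strand) encodes enolase, which makes phosphoenolpyruvate. Its strongest pooled call ran from 1727609 to 1728048 with the summit at 1727829, 112 bp upstream of the internal TSS of Eno-RA and Eno-RF, which is 1919 bp downstream of the first TSS. This summit lay in a coding exon of Eno. The signal of 85.9 (rank 1567) was just under the lowest signal of the optimal list, 88.6. Signal was 47.7, 19.7 and 26.6 in replicates 1 to 3. In replicate 1 it ranked 713, in replicate 2 10148, and in replicate 3 1529, so that only replicate 1 had it among its top calls. Relative signal was 0.743 ± 0.306 (SD, n = 3), the widest spread of the 10 genes. The nearest optimal call lay 7620 bp outside the gene.

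**Figure D2:**
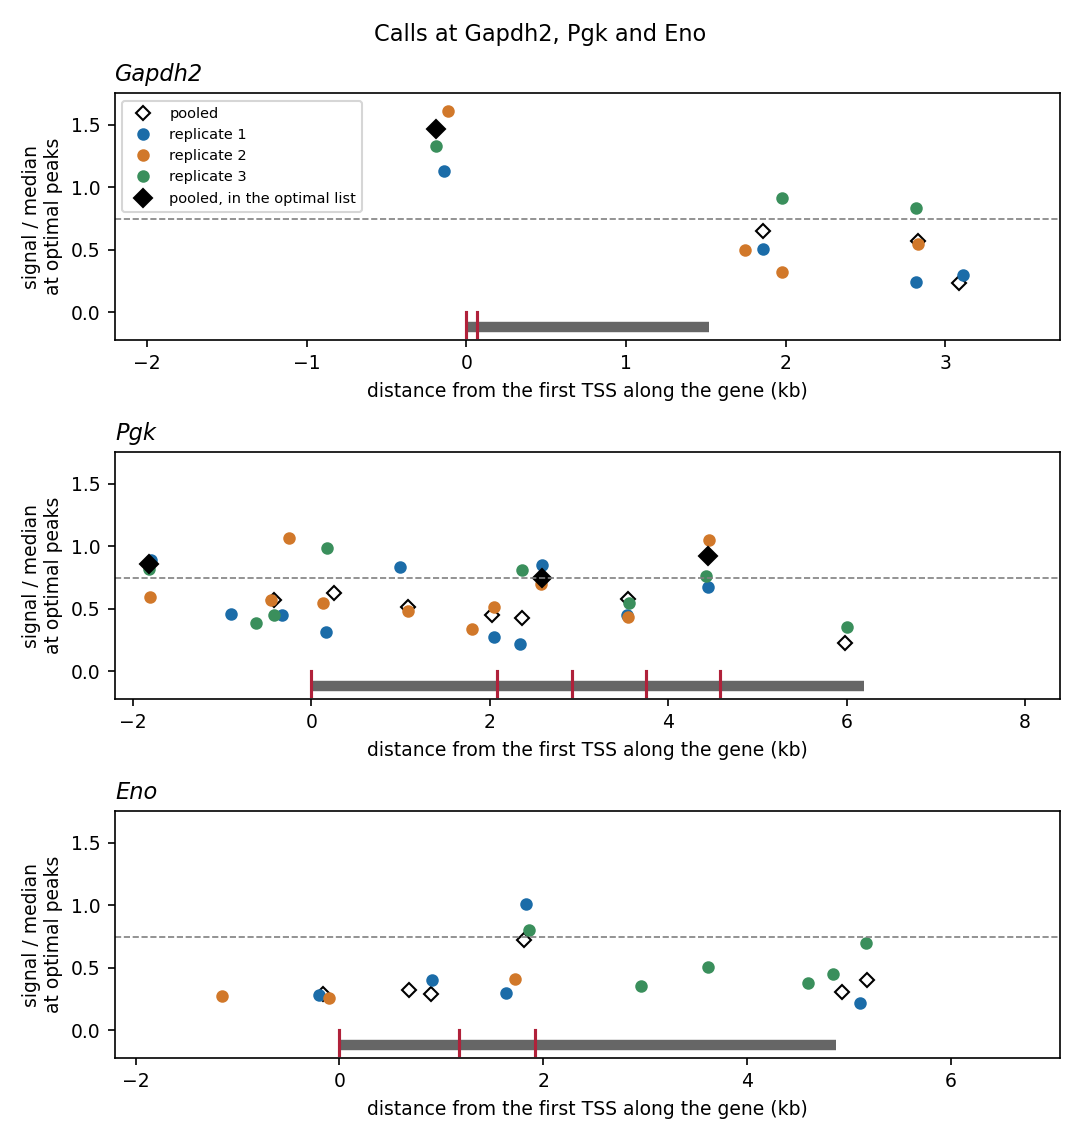
Calls at Gapdh2, Pgk and Eno by distance from the first TSS along the gene in kb (x axis) and relative signal (y axis), with replicates as coloured points, pooled calls as diamonds and calls of the optimal list filled black. The grey bar is the gene, red ticks are annotated TSSs and the dashed line is the lowest signal of the optimal list. At Gapdh2 the 3 replicates stand together upstream of the first TSS, and at Pgk the highest point of each replicate is at a different place.

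The 7 remaining genes, with Gapdh1 among them, had no optimal call. Pgi, which makes fructose-6-phosphate, had a pooled call with a signal of 60.1 (rank 3690) 88 bp upstream of its TSS. Within 200 bp of that summit, signal was 13.95 in replicate 1 and 31.2 in replicate 2, and replicate 3 had no call. A second call of 52.2 lay 462 bp upstream, 7 bp from the TSS of the divergent neighbour lin, with 22.5 in replicate 1, 21.7 in replicate 3 and no call in replicate 2. The 2 calls were thus carried by different pairs of replicates.

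Pfk, the phosphofructokinase of the committed step, had 5 pooled calls with signals from 30.2 to 42.0. The strongest lay beyond the 3′ end of the gene and 121 bp from the TSS of dmpd, and replicate 1 was the only replicate with a call within 200 bp of it, at 24.75. At Ald1, the aldolase, the strongest pooled call (39.2) lay just beyond the 3′ end, with 23.04 in replicate 1, 24.6 in replicate 3 and no call within 200 bp in replicate 2. The 5 TSSs of Ald1 had 1 pooled call within 500 bp, with a signal of 30.5.

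Pglym78, the phosphoglycerate mutase, had a pooled call of 43.8 in its 5′ UTR, with its summit 45 bp upstream of the nearest TSS, and signals of 21.8 in replicate 2, 20.6 in replicate 3 and no call within 200 bp in replicate 1. PyK, which makes pyruvate, had pooled calls of 31.9 in an intron and 30.9 at its first TSS. The strongest call in its window was 11.3, 24.9 and 12.9 in replicates 1 to 3. Tpi, the triose phosphate isomerase, was the only member with no pooled call. In its window the strongest call had a signal of 12.4 in replicate 1 and 12.6 in replicate 3, and replicate 2 had no call. The lowest signals listed at all were 10.4, 11.96 and 9.77 in replicates 1 to 3, so a missing call means that nothing above that floor was listed and not a signal of 0. Any pooled call was found at 9 of 10 members, against 81.6% of all genes.

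Ordered by the mean relative signal of the strongest call in the window, the genes were Gapdh2 (1.36 ± 0.242), Pgk (0.979 ± 0.0902), Eno (0.743 ± 0.306), Pgi (0.596 ± 0.101), Pfk (0.544 ± 0.137), Ald1 (0.535 ± 0.189), Pglym78 (0.459 ± 0.164), Gapdh1 (0.419 ± 0.0659), PyK (0.384 ± 0.141) and Tpi (0.215 ± 0.195, with the missing call at 0), each SD over n = 3. The strongest call need not be the same site in each replicate. Its summits spanned 1977 bp at Pgk, 5950 bp at Pfk and 6291 bp at Ald1. There the SD is not the spread of a single site. At Pgk these summits lay nearest to a Bacc TSS, and the strongest optimal call had a relative signal of 0.831 ± 0.197 (SD, n = 3). By the window values, Gapdh2 and Pgk differed by 0.379, more than the larger of their SDs, with Gapdh2 higher in 3 of 3 replicates. The other 8 pairs of neighbours in this order differed by less than the larger SD of the pair. A missing call is below the floor of its list and need not be 0, so the Tpi mean is a lower bound and its SD depends on that 0. The median over all genes was 0.426, so Gapdh1, PyK and Tpi were below it. The strongest call of a longer window is drawn from more calls, and the genes had a median length of 4020 bp, against 2166 bp for all genes.

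Among all protein-coding genes, 3.56% had a pooled signal in the window at or above that of Gapdh2, 9.97% at or above that of Pgk and 15.6% at or above that of Eno. Of the 10 genes, 5 were above the median of all genes. The median of the strongest pooled signal was 42.9 over the 10 genes, against 43.7 over all genes. In the replicate lists the median relative signal of the 10 genes was above that of all genes, at 0.484 against 0.362 in replicate 1, 0.458 against 0.432 in replicate 2 and 0.673 against 0.480 in replicate 3. By the mean over replicates, 7 of the 10 were above the median of all genes. The level of the list against the genome thus depended on whether the pooled or the replicate lists were read.

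**Figure D3:**
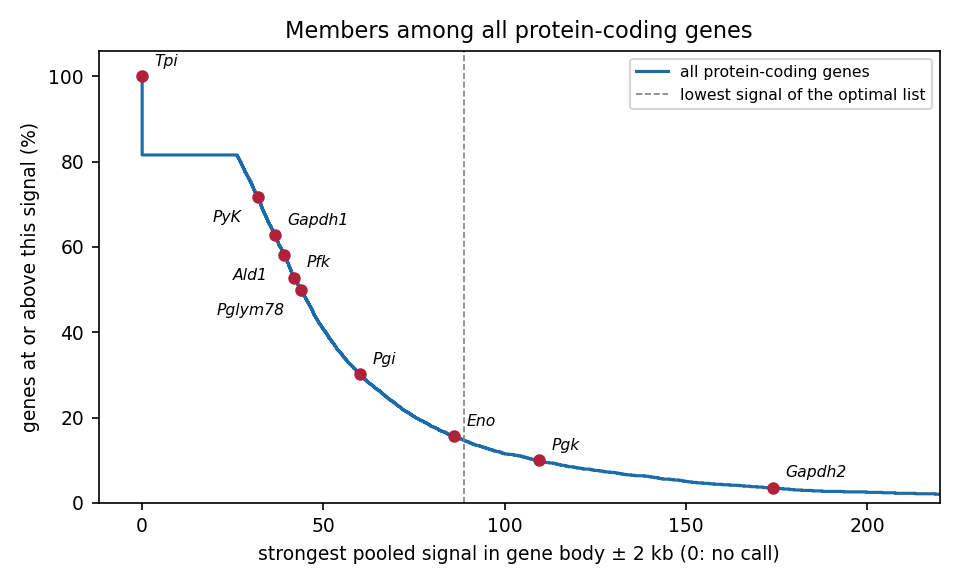
Share of all protein-coding genes (y axis, percent) whose strongest pooled signal in the gene body or within 2 kb is at or above the value on the x axis, with the 10 glycolytic genes as red points and the lowest signal of the optimal list as a dashed line. Gapdh2 and Pgk lie right of the dashed line, Eno just left of it, and Tpi at 0 because it had no call.

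The 39 pooled calls at these genes were set against the genes' structure. Summits lay within 500 bp of a TSS of the member in 18 cases. By location, 20 were outside the gene, 10 in introns, 6 in coding exons, 3 in 5′ UTRs and 0 in 3′ UTRs. For 18 of the 39 the nearest protein-coding TSS was that of the glycolytic gene, and for the others it was that of a neighbour such as CG16952, Bacc, dmpd, Rim2 or eIF2D. The strongest pooled call of each of the 9 genes lay a median of 147 bp from the nearest TSS of the gene, against 1186 bp over all genes with a pooled call. This distance depended on the setting, since it was 1024 bp against 1336 bp from the first TSS of the gene, and 2152 bp against 2754 bp with 5 kb to either side. The 10 members have 28 annotated TSSs, against 19607 for all 13945 genes. A gene with more TSSs has a shorter nearest distance and more sequence within 1 kb of a TSS. At the 4 genes with the strongest pooled calls, Gapdh2, Pgk, Eno and Pgi, that summit was upstream of the nearest TSS of the gene. At Pgk and Eno this TSS was an internal one, so the summit lay inside the gene. For the counts by location, nearest TSS and side of the TSS, no share over all pooled calls was taken. Those counts describe these genes alone. All 3 replicates had a call within 200 bp in 9 of the 39 (23.1%), against 20.6% of the 29995 pooled calls on the main arms. Of these 9, 5 were at Pgk, 3 at Gapdh2 and 1 at Eno.

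**Figure D4:**
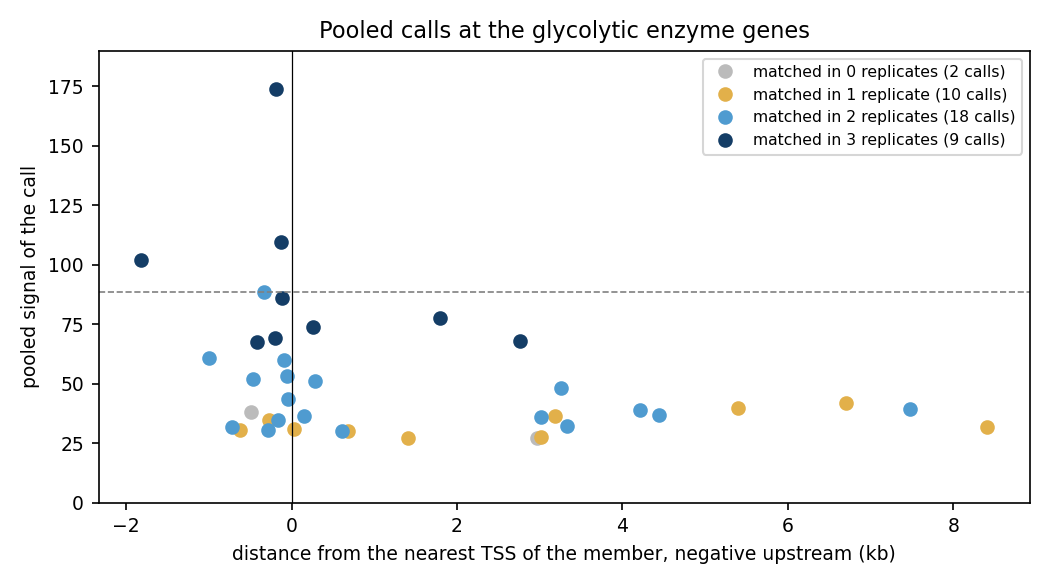
Pooled signal (y axis) of each of the 39 pooled calls in the windows by distance from the nearest TSS of the glycolytic gene (x axis, kb, negative upstream), coloured by the number of replicates with a call within 200 bp. The dashed line is the lowest signal of the optimal list, and the calls above it lie upstream of a TSS.

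The DNA at these genes was searched on both strands for 8 words fixed with the lists. Promoters were taken from 250 bp before to 50 bp after each annotated TSS, which gave 28 for the members and 19607 for all protein-coding genes. The DNA replication-related element TATCGATA was in 0 of the 28, against 7.98% of all promoters, and so was the Zelda word CAGGTAG, against 1.70%. The ERR element TCAAGGTCA (0.168% of all promoters) and the E-box CACGTG (4.01%) were also in 0. GGTCACAC (Motif 1) was in 1 of 28, a Gapdh1 promoter, against 6.72%. GAGAG, bound by the GAGA factor, was in 10 of 28 (35.7%) against 33.1%, TATAAA in 8 (28.6%) against 42.2%, and ACGTG, the core of the hypoxia element, in 5 (17.9%) against 23.8%. ACGTG is contained in CACGTG, and ATCGAT in TATCGATA. Promoters of 1 gene overlap or lie close together, so they are not independent.

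Within 50 bp of the 4 optimal summits, TATAAA was found at Gapdh2 and at the upstream Pgk call, against 13.0% of all 1471 optimal summits. None of the other 7 words was there, of which TATCGATA was at 3.33% of all optimal summits, CAGGTAG at 0.952% and GAGAG at 11.7%. ATCGAT, chosen after the sequences were seen, was at the intronic Pgk summit, against 8.50% of all. Among promoters it was in 3 of 28 (10.7%), at Eno and Gapdh1, against 20.9% of all promoters. The 101 bases at the Gapdh2 summit held 73.3% A or T, and the 3 Pgk summits 49.5% at the internal promoter, 66.3% in the intron and 69.3% upstream, against a median of 60.4% and quartiles of 53.5% and 68.3% at the optimal peaks. No word was found at all 4 summits, and their base composition ranged from below the lower quartile to above the upper one.

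Among all optimal peaks, those whose relative signals in the 3 replicates were most like the Gapdh2 peak (Euclidean distance of log2 values) lay nearest to CG13334 (distance 0.124) and RpL14 (0.145), a ribosomal protein gene. They were 6143 bp and 27 bp from those TSSs. For the internal Pgk promoter these were the peaks nearest to croc (0.0744, 11960 bp from the TSS) and CG43759 (0.129, 179 bp). For the upstream call they were those nearest to Su(z)2 (0.0932, 5925 bp) and RpL28 (0.0970, 43 bp). In each of these pairs the most alike peak lay 5925 bp or more from a TSS, and the other 179 bp or less. The peaks most alike in signal thus had no common position.

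Other genes around glycolysis were taken from 5 lists of 53 symbols, of which 51 matched the annotation. Of these 51, 11 (21.6%) had an optimal call in the window, against 14.8% of all genes, and 7 (13.7%) within 1 kb of a TSS of their own, against 8.73%. In sugar entry and stores 4 of 15 had one. Hex-A, a hexokinase and so the entry to glycolysis, had a call of 146 (rank 458) 187 bp upstream of its TSS, with 41.3, 74.3 and 29.6 in replicates 1 to 3, all top calls. Pgm1, which links glycogen to glucose-6-phosphate, had one of 152 at 139 bp upstream, with 48.5, 88.7 and 19.6 in replicates 1 to 3, the last outside the top calls.

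Treh, the trehalase, had a call of 150 at 869 bp upstream of its own TSS, though nearer to that of CG10527. Hex-C, another hexokinase, had one of 418 at 2575 bp from its TSS and nearer to that of mRpL41. Both were top calls in all 3 replicates. In the list of pyruvate, lactate and gluconeogenesis, Gpdh1 and Ldh were the 2 of 12. Ldh, the lactate dehydrogenase that regenerates NAD, had a call of 89.8 (rank 1418) 95 bp upstream of its TSS, with 31.1, 34.8 and 22.5 in replicates 1 to 3, none of them a top call. Gpdh1, the glycerol-3-phosphate dehydrogenase, had 2 optimal calls, the stronger of 111 at 111 bp downstream of a TSS, with 54.1 in replicate 1, 49.4 in replicate 2 and no call within 200 bp in replicate 3.

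The pentose phosphate list had 2 of 7. CG8036, a transketolase, had 2 optimal calls, the stronger of 178 at 246 bp upstream, and Zw, the glucose-6-phosphate dehydrogenase, one of 161 at 1080 bp upstream. Both were top calls in all 3 replicates. Of the 8 regulators, bigmax, the partner of the sugar sensor Mondo, had a call of 108 at 119 bp upstream. The call at sima, the fly HIF-1 alpha, had a signal of 127 at 1516 bp upstream, nearer to CG7950. Neither was a top call in all 3 replicates, with ranks of 1295, 1858 and 1104 at bigmax and 1030, 271 and 1851 at sima. ERR had no optimal call, and its strongest pooled call had a signal of 81.2. Of the 9 paralogues of the members, CG12229, a pyruvate kinase paralogue, had a call of 260 at 2660 bp from its TSS, nearer to CG32176.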

How the data were processed

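Per the file names and the text that accompanied the deposited files, the authors called peaks on dm6 against a control, as relaxed lists of peaks and background per replicate and pooled, and as an optimal list past their IDR (irreproducible discovery rate) threshold made from all of them. The aligner, the caller, their versions and the threshold are not given in the sources used here. Signal per call is the authors' deposited value. The deposited −log10 q-value is capped in each list and was not used for ranking. The deposited summit offset, another measure in bp, gave the summit. Genes and TSSs came from Ensembl release 115 (dm6 coordinates). All calls and genes of the main arms ended within the RefSeq dm6 arm lengths. The dm3 lists were not used here. Calls were matched within 200 bp. Windows reached 2000 bp beyond the gene. Python 3.11.15, numpy 2.4.6, pandas 2.3.3 and biopython 1.88 were used, and counting was tested on simulated calls. Proteins, coding sequences and promoters of Gapdh1 and Gapdh2 were aligned globally. The depth was unknown, so no counting interval was given. Members, lists, words and tests were chosen with earlier results of these data known. Named genes were the members, every listed pathway gene with an optimal call (up to 4 a list), the gene with the nearest TSS where that was another gene, the 2 most alike peaks, and the gene nearest an optimal call outside a window. Alternatives were stricter peak sets, other windows, distances and scalings, and leaving out each replicate. Replicates were labelled biological.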

Additional observations from a re-analysis of the deposited data

How the results depend on the processing

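The 2 members with an optimal call became 1 in several settings, in which the share of all genes fell too. Gapdh2 alone was left among calls with a top call in all 3 replicates (1, against 7.26% of all genes), among the stronger part of the optimal peaks (1, against 8.45%), and without replicate 1 (8.25%) or replicate 3 (8.94%), for a range of 1 to 2 over the replicates left out. With the gene body alone the count was 1, Pgk, against 5.42%, since the Gapdh2 summit is upstream of the gene. Near a TSS the count was 1 among calls with a top call in all 3 replicates (4.12%) and 1 without each of the replicates in turn. For both counts, leaving out a replicate meant asking for top calls in both others, and the optimal list of all 3 was kept. The count of members with a top call in every replicate was 1 with a shorter list of top calls (4.43%) and 1 with the gene body alone (2.67%). The median pooled signal of the members was 66.2 with 5 kb to either side, against 53.6 over all genes. Scaled to the pooled list, it was 57.6 from the replicate 1 list, against 43.05, and 80.01 from the replicate 3 list, against 57.05. The median distance to a TSS was 2152 bp with 5 kb to either side and 1024 bp from the first TSS of the gene. The count of other pathway genes was 6 among calls with a top call in all 3 replicates, against 11, while the share of all genes was 7.26%, against 14.8%. The relative signal without 1 replicate ranged from 1.23 to 1.47 at Gapdh2, from 0.720 to 0.909 at the internal Pgk promoter and from 0.707 to 0.852 at the upstream Pgk call, and no matching distance or scaling moved these by more than 1 SD. The cause of the other shifts was not tested. No paired analysis was possible because the series has a single group and replicate numbers pair no groups. The test of Gapdh2 against Gapdh1 paired genes within a library. The word ATCGAT was chosen after seeing the data. Depth could not be assessed.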

Other observations

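Outside the windows, the nearest optimal call was 6684 bp from Pgk (signal 112, nearest TSS that of HemK2), 8052 bp from Pglym78 (89.3, rdog) and 8886 bp from Gapdh1 (99.6, CG46385). It was 208376 bp from PyK and 194656 bp from Ald1.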
